A study of Homo sapiens with 12 samples.

Results

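The 47 genes described here act in the G2 phase and in mitosis, and they were followed in 2 human cell lines given an extract of poultry house dust. They are a fixed list of cyclins and other CDK1 regulators (10 genes), mitotic kinases and spindle checkpoint proteins (8), anaphase regulators (3), kinesins (7), centromere and chromosomal passenger proteins (6), spindle proteins (6), cytokinesis regulators (3), chromosome proteins (3) and the transcription factor FOXM1. All 47 had a probe on the array under their own symbol, 68 probes in all, and each gene was read from its probe with the highest mean signal. All 47 were tested among 15479 features. Admission to the test did not rest on THP-1 cells, since all 47 probes were well above background (detection p under 0.01) on all 6 BEAS-2B arrays, and 29 were so on all 12 arrays.

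RNA of THP-1, a monocytic leukemia line, and of BEAS-2B, a bronchial epithelial line made immortal in culture, was hybridised to 12 arrays of 1 chip, 2 for each of 6 groups. Both lines were starved of serum overnight, controls included, then kept in medium alone or given the extract for 1 h or 3 h. The extract was used at 0.1% on THP-1 and at 0.25% on BEAS-2B, so differences between the lines' responses are differences of line and dose together. How long controls were kept, and whether the 2 replicates of a group came from different cultures, is not in the labels. The p-values therefore reflect variation among arrays that could be technical. One label field of the THP-1 samples names another line, so the lines were checked on markers. Of 10 monocyte markers with a probe, 9 or 10 were well above background on the THP-1 arrays and 2 on the BEAS-2B arrays. Of 11 epithelial markers, 11 were so on the BEAS-2B arrays and at most 1 on the THP-1 arrays, and none of 6 markers of the lung line A549 was so on any THP-1 array.

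Entry into mitosis is driven by CDK1 bound to cyclin A or cyclin B, which CDC25 phosphatases switch on. Chromosomes then attach to a spindle built by kinesins and microtubule-binding proteins, under the watch of a checkpoint that holds back the anaphase-promoting complex until every kinetochore is attached. The messenger RNAs of these proteins peak together late in the cell cycle. Their genes are held down in resting cells by the DREAM complex and switched on by MYB-family factors and FOXM1, in part through promoter elements called CHR (cell cycle genes homology region) and CCAAT box.

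The promoters are shown because the genes moved together. RefSeq windows of 300 bases (250 before and 50 after the annotated start, build GRCh38.p14) were used for 40 of the 47 genes, all but AURKA, TTK, UBE2C, BIRC5, TPX2, RACGAP1 and FOXM1. They were searched on both strands for TTTGAA, a CHR element, and for CCAAT, which reads ATTGG on the other strand. Neighbouring matches may overlap. TTTGAA stood in the windows of 30 of the 40 genes, against 18.2% of all 27305 genes with a window. CCAAT stood in 35 of 40 (87.5%), against 39.7% of all genes. Both stood in 27 of 40 (67.5%), against 7.26%, and at least 2 CCAAT boxes in 22 of 40 (55.0%), against 12.9%. Among the 35 genes with a window that fell in THP-1 cells after 3 h, 27 held TTTGAA and 32 held CCAAT. Among the 5 that did not pass the test there, 3 held each motif. A match is a description of letters and not of a bound site.

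The 150 bases before the start follow for 4 genes among those with the smallest p-values in THP-1 cells and 1 RefSeq window (KIF20A, CENPA, HMMR, CCNB2), and for KIF2C and MKI67, which did not pass the test. They are written 5′ to 3′ on the strand of the gene, with both motifs in capitals in either orientation.
KIF20A, chr5:138178962-138179111, plus strand: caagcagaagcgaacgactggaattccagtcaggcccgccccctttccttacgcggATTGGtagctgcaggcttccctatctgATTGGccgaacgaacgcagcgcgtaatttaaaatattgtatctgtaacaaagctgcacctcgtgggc
CENPA, chr2:26785906-26786055, plus strand: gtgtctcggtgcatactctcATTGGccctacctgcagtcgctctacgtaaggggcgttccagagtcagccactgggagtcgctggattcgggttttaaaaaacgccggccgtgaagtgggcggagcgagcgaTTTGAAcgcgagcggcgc
HMMR, chr5:163460482-163460631, plus strand: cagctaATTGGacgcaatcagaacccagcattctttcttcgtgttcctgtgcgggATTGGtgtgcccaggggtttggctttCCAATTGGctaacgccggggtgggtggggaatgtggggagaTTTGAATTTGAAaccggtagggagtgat
CCNB2, chr15:59104996-59105145, plus strand: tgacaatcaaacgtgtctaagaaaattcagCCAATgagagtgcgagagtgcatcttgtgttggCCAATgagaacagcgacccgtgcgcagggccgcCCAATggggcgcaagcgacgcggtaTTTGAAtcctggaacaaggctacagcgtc
KIF2C, chr1:44739687-44739836, plus strand: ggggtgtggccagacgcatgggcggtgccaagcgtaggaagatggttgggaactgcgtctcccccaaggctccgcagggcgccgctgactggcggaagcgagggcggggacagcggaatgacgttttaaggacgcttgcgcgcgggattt
MKI67, chr10:128126424-128126573, minus strand: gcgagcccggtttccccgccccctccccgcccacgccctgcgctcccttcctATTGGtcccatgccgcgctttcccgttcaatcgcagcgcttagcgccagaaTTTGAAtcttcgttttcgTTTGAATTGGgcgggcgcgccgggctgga
The promoter of CCNB2 carried 3 CCAAT boxes and 1 TTTGAA in this stretch, and that of HMMR 4 and 2. KIF20A held 2 CCAAT boxes and no TTTGAA. KIF2C held neither motif, whereas MKI67 held 2 of each, with 1 overlap of TTTGAA and ATTGG.

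Values below are log2 intensities after background correction and quantile normalization over the 12 arrays. Each change is a difference of 2 group means with its standard error (SE, n = 2 arrays against 2). The SE rests on 1 moderated spread per gene, estimated by limma over all 12 arrays of both lines. It is not the spread of the arrays compared alone. A gene was called higher or lower at a Benjamini-Hochberg adjusted p under 0.05 in limma, over all 15479 features. The THP-1 arrays stood apart by replicate number on these genes. Replicate 2 was higher than replicate 1 for 47 of 47 genes in control (median difference 0.67), for 47 of 47 after 1 h (0.60) and for 46 of 47 after 3 h (0.80), while the median over all features lay between -0.01 and 0.03. In BEAS-2B the same difference had a median of 0.03 in control, -0.14 after 1 h and 0.25 after 3 h. The median SD of the 47 genes between the arrays of a group was 0.476, 0.421 and 0.567 in the THP-1 groups and 0.0654, 0.0997 and 0.179 in the BEAS-2B groups. The cause of the difference between replicate numbers was not tested.

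**Figure D1:**
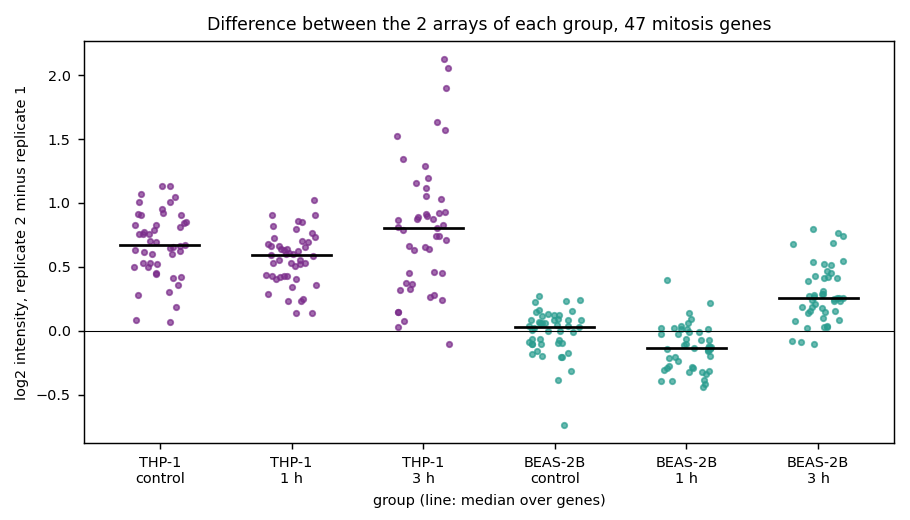
Difference in log2 intensity between the 2 arrays of each group (y axis, replicate 2 minus replicate 1) for the 47 genes (points) in the 6 groups (x axis), with the median over genes as a line. The THP-1 medians lie at 0.67, 0.60 and 0.80, and the BEAS-2B medians between -0.14 and 0.25.

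In medium alone, the BEAS-2B cultures had more of these messengers. In BEAS-2B, 33 of the 47 genes were higher than in THP-1 and 0 were lower, with a median difference of 1.16, a 2.24-fold excess (limma). Over all features, 62.4% were called between the 2 controls and 32.2% were called higher and 30.1% lower in BEAS-2B, with a median of 0.01. CDC25B, a phosphatase that activates CDK1, read 6.78 and 7.78 in THP-1 and 11.47 and 11.09 in BEAS-2B, a 16.0-fold difference (adjusted p = 5.62e-07). AURKB, the kinase of the chromosomal passenger complex, was 7.42-fold higher in BEAS-2B, and UBE2C, a ubiquitin-conjugating enzyme of the anaphase-promoting complex, 5.33-fold. CDK1 itself was 4.33-fold higher. In THP-1 the Ki-67 gene MKI67 and the kinesin gene KIF18A were well above background on 1 of the 2 control arrays only. Neither was so on both arrays of any THP-1 group. Both entered the test only through BEAS-2B, so their higher values there are not independent of the filter. CDC20, the activator of the anaphase-promoting complex, had the sole mean below that of THP-1, at 12.81 and 12.83 against 12.85 and 13.68 (adjusted p = 0.276). Without THP-1 control replicate 1, 21 genes were higher.

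**Figure D2:**
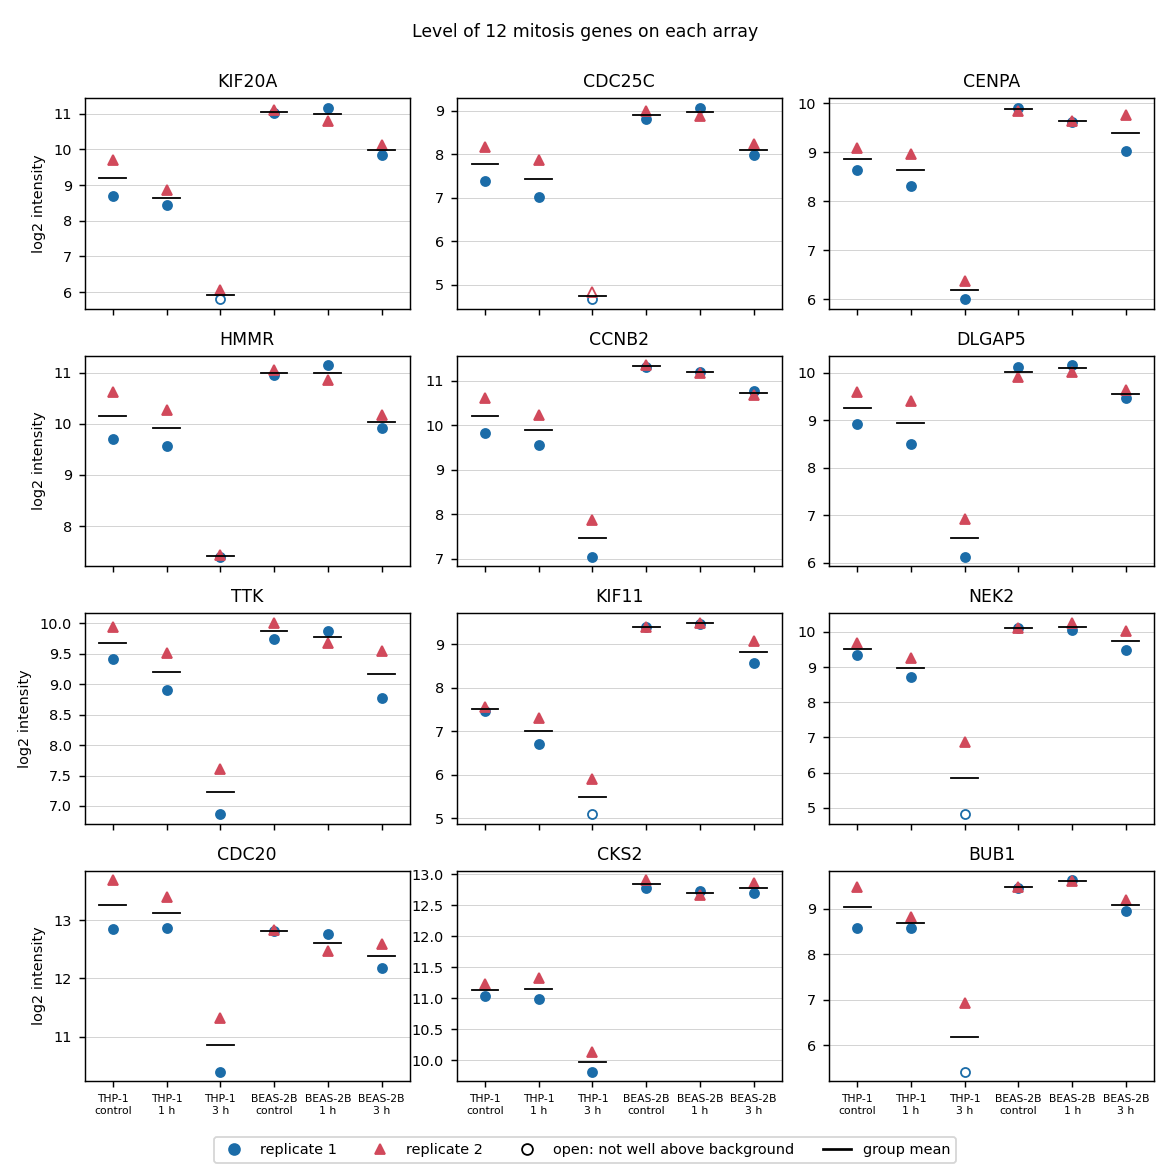
Log2 intensity (y axis) of 12 genes on each of the 12 arrays, by line and time (x axis), with replicate 1 as circles, replicate 2 as triangles, open symbols for arrays on which the probe was not well above background, and a line at the group mean. The 12 genes are those with the smallest adjusted p (limma) against control in THP-1. Both THP-1 arrays after 3 h lie below all other arrays in each of the 12 panels, which follows in part from that choice.

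After 3 h of dust extract, mitotic messengers fell in THP-1 cells. Of the 47 genes, 41 were called lower and 0 higher, 87.2% of the list, against 26.6% of all features called lower and 19.1% called higher (45.7% in either direction). The median change was -1.75, a 3.35-fold fall, against -0.05 over all features. All 47 estimates were negative, from -0.60 (GTSE1) to -3.66 (NEK2), with 39 of at least 2-fold and 14 of at least 4-fold as fitted, and 37 and 11 with dim arrays at the detection limit. The detection limit of an array is here its dimmest signal among probes above background. For 44 genes both dust arrays lay below both control arrays, which held for 38.2% of all features. Within replicate 1 the median change was -1.81 and within replicate 2 -1.64, with all 47 genes lower in each. In RNA of whole cultures, fewer cells in G2 and mitosis and less of each messenger per cell cannot be told apart.

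After 3 h, 6 probes were well above background on neither THP-1 array, and 12 on only 1 of the 2. Where a gene was dim on both arrays of a group, its fold is a bound: the mean of the brighter group against, for each dim array, the higher of its own signal and the detection limit. Setting the dim arrays in this way moved the median change of the 47 genes to -1.54. The THP-1 arrays after 3 h also had the lowest upper quartile of raw signal of the 12, 126 and 127 against 144 to 181. Scaling to the median, the 75th percentile or a housekeeping list in place of quantile normalization put the median of all features at 0.20, 0.12 and -0.29, and that of the 47 genes at -1.49, -1.56 and -1.97. These scalings shift all genes of an array alike, so the distance between the medians (-1.69) is the same by construction. All 47 estimates stayed negative. The split of all calls moved with the scaling, from 2960 higher and 4111 lower features to 4940 and 3261, 4308 and 3601, and 1682 and 6094. The summed raw signal of the 10 monocyte markers was 45969.6 and 38321 in untreated THP-1 cells, against 35743 and 35875 at 3 h. That of 11 housekeeping genes was 62955 and 59321 in untreated THP-1 cells, against 61438 and 59411 at 3 h. All 11 were well above background on every array. The part of these differences in the fall of the mitotic genes was not tested.

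All 10 cyclins and CDK1 regulators fell in THP-1 cells at 3 h (median -1.70). CCNB2, cyclin B2, a partner of CDK1, read 9.82 and 10.61 in control, 9.56 and 10.24 at 1 h, then 7.05 and 7.87 at 3 h. Its change of -2.75 ± 0.31 (6.74-fold, adjusted p = 5.35e-05, limma) left no overlap with control or 1 h. CDC25C, another phosphatase of CDK1, stood at 7.39 and 8.17 in control and at 7.01 and 7.87 after 1 h. After 3 h it was not well above background on either array (4.68 and 4.83), at least 3.88-fold lower than control (adjusted p = 1.71e-05, limma). This bound holds for the probe used. Another CDC25C probe, well above background on all 12 arrays, changed by only -0.89, and the remaining one by -2.58. CCNB1, cyclin B1, fell 4.84-fold with 1 of its 2 dust arrays dim (4.52-fold with that array at the detection limit). CCNA2, cyclin A2, fell 3.03-fold. CDC25B and CDCA3, a protein of mitotic entry, were dim on both arrays, at least 2.74-fold and 2.59-fold lower. CKS2, a small subunit that binds CDK1, read 11.04 and 11.23 in control, 10.98 and 11.32 at 1 h, then 9.81 and 10.13 at 3 h, a change of -1.17 ± 0.17. The largest adjusted p-values of the group were those of CCNF, an F-box cyclin (2.31-fold, adjusted p = 0.0322), CKS1B (1.57-fold, adjusted p = 0.046) and CDK1 (1.52-fold, adjusted p = 0.0348). CDK1 was also the exception among 19 genes with several detected probes. Its second probe changed by 0.10, whereas all probes of the other 18 genes were lower. The sizes differed between probes of a gene. Dimmer second probes changed by -0.10 for KIF23, -0.34 for UBE2C and -0.54 for RACGAP1, against -1.27, -1.92 and -1.95 for the probes used. Some second probes fell further, such as that of CENPE (-2.19 against -1.60).

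Of the 8 mitotic kinases and checkpoint genes, 7 fell (median -1.82). NEK2, a kinase that parts the centrosomes, read 9.33 and 9.68 in control, 8.71 and 9.26 at 1 h, then 4.82 and 6.88 at 3 h, the first of these 2 dim. Its change of -3.66 ± 0.50 was the largest estimate (12.6-fold, and 8.78-fold with the dim array at the detection limit). A dimmer second NEK2 probe, well above background on 10 arrays, changed by -1.72. BUB1, a checkpoint kinase at kinetochores, read 8.58 and 9.49 in control, 8.58 and 8.81 at 1 h, then 5.41 (dim) and 6.94 at 3 h, a change of -2.86 ± 0.41 (adjusted p = 0.000258, limma), or -2.63 with the dim array at the limit. TTK, the kinase that starts checkpoint signalling, read 9.42 and 9.94, then 8.90 and 9.51, then 6.86 and 7.60, a change of -2.45 ± 0.32. Both dust arrays of these genes lay below every control and 1 h array. AURKA, a kinase of the spindle poles, fell 3.66-fold, MAD2L1, a checkpoint protein that binds CDC20, 3.10-fold, and BUB1B, its partner in the checkpoint complex, 2.32-fold (2.08-fold with its dim array at the limit). PLK1, a kinase of mitotic entry and spindle assembly, was at least 2.42-fold lower. AURKB read 7.14 and 7.64 in control and 4.95 (dim) and 7.07 after 3 h (adjusted p = 0.0583).

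The 3 anaphase genes fell. CDC20 read 12.85 and 13.68 in control, 12.86 and 13.39 at 1 h, then 10.40 and 11.32 at 3 h, 5.30-fold lower (adjusted p = 0.000216). UBE2C fell 3.80-fold and PTTG1, which encodes securin, the inhibitor of separase, 1.69-fold. Among the 7 kinesins 6 fell (median -1.27). KIF20A, a motor of the central spindle, had the smallest adjusted p of the list. It read 8.69 and 9.70 in control, 8.43 and 8.85 at 1 h, then 5.81 (dim) and 6.04 at 3 h. Its change of -3.27 ± 0.29 came to 9.65-fold (adjusted p = 1.04e-05, limma), and to 9.44-fold with the dim array at the limit. KIF11, the motor that pushes spindle poles apart, read 7.46 and 7.55, then 6.71 and 7.31, then 5.09 (dim) and 5.90, a change of -2.01 ± 0.27, or -1.62 with the dim array at the limit. KIF4A, a chromosome-bound motor, fell 3.40-fold and KIF23, a motor of the central spindle, 2.41-fold (2.77-fold and 2.39-fold with 1 dim array each at the limit), and KIF14, which acts in cytokinesis, 1.69-fold. KIF18A, the dimmest of the 47 probes, read 5.40 (dim) and 6.21 in control, 4.95 (dim) and 5.98 after 1 h, and 4.40 and 4.72 (both dim) after 3 h. It passed the test (adjusted p = 0.0108), but its fold with dim arrays at the limit was 1.08. KIF2C, a motor that takes microtubules apart, read 8.45 and 9.30 in control and 7.47 and 8.52 after 3 h, with overlap (adjusted p = 0.0589).

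All 6 centromere and passenger genes fell (median -1.67). CENPA, the histone H3 variant that marks centromeres, read 8.64 and 9.09 in control, 8.32 and 8.96 at 1 h, then 6.01 and 6.38 at 3 h. The change of -2.67 ± 0.28 (6.34-fold, adjusted p = 2.78e-05) was seen with both dust arrays above background. HJURP, the chaperone that deposits CENPA, fell 3.66-fold, CENPF 3.35-fold (3.13-fold with its dim array at the limit) and CENPE, a kinetochore motor, 3.03-fold. BIRC5, survivin, and CDCA8, borealin, both subunits of the passenger complex, fell 2.76-fold and 2.35-fold.

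Among the 6 spindle genes 5 fell (median -1.66). HMMR, a microtubule-binding protein of spindle poles, read 9.70 and 10.61 in control, 9.57 and 10.26 at 1 h, then 7.41 and 7.43 at 3 h, a 6.66-fold fall (adjusted p = 3.28e-05). DLGAP5, a protein that stabilises kinetochore fibres, read 8.91 and 9.59, then 8.49 and 9.40, then 6.13 and 6.93, a 6.60-fold fall (adjusted p = 8.36e-05). Dust arrays at 3 h of both genes lay below all others of the line. NUSAP1, a microtubule-bundling protein, fell 3.40-fold, TPX2, the activator of AURKA, 2.91-fold and PRC1, which bundles central spindle microtubules, 2.57-fold. GTSE1, a microtubule-binding regulator of p53, read 7.28 and 7.94 in control and 6.87 and 7.15 after 3 h (adjusted p = 0.0577). The cytokinesis genes ECT2, RACGAP1 and ANLN fell 4.07-fold, 3.87-fold and 2.91-fold, and ECT2 3.32-fold with its dim array at the limit. TOP2A, the topoisomerase that untangles chromosomes, fell 4.57-fold, while NCAPG, a condensin subunit, read 8.97 and 10.10 in control and 7.85 and 9.05 after 3 h (adjusted p = 0.0517). MKI67 was dim on both THP-1 arrays after 3 h and above background on 1 control array (adjusted p = 0.0851). FOXM1 read 7.13 and 7.77 in control and 5.85 (dim) and 7.42 after 3 h (adjusted p = 0.136).

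Leaving out THP-1 control replicate 2 reduced the 41 calls to 33, and leaving out dust 3 h replicate 1 to 34. Over 25 alternatives, 33 of the 41 calls held in each one that tested the gene, and 20 of these were tested in all 25. CCNF, CDCA8, CDK1, CENPF, CKS1B, KIF14, KIF18A and PTTG1 missed the threshold in at least 1 setting.

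**Figure D3:**
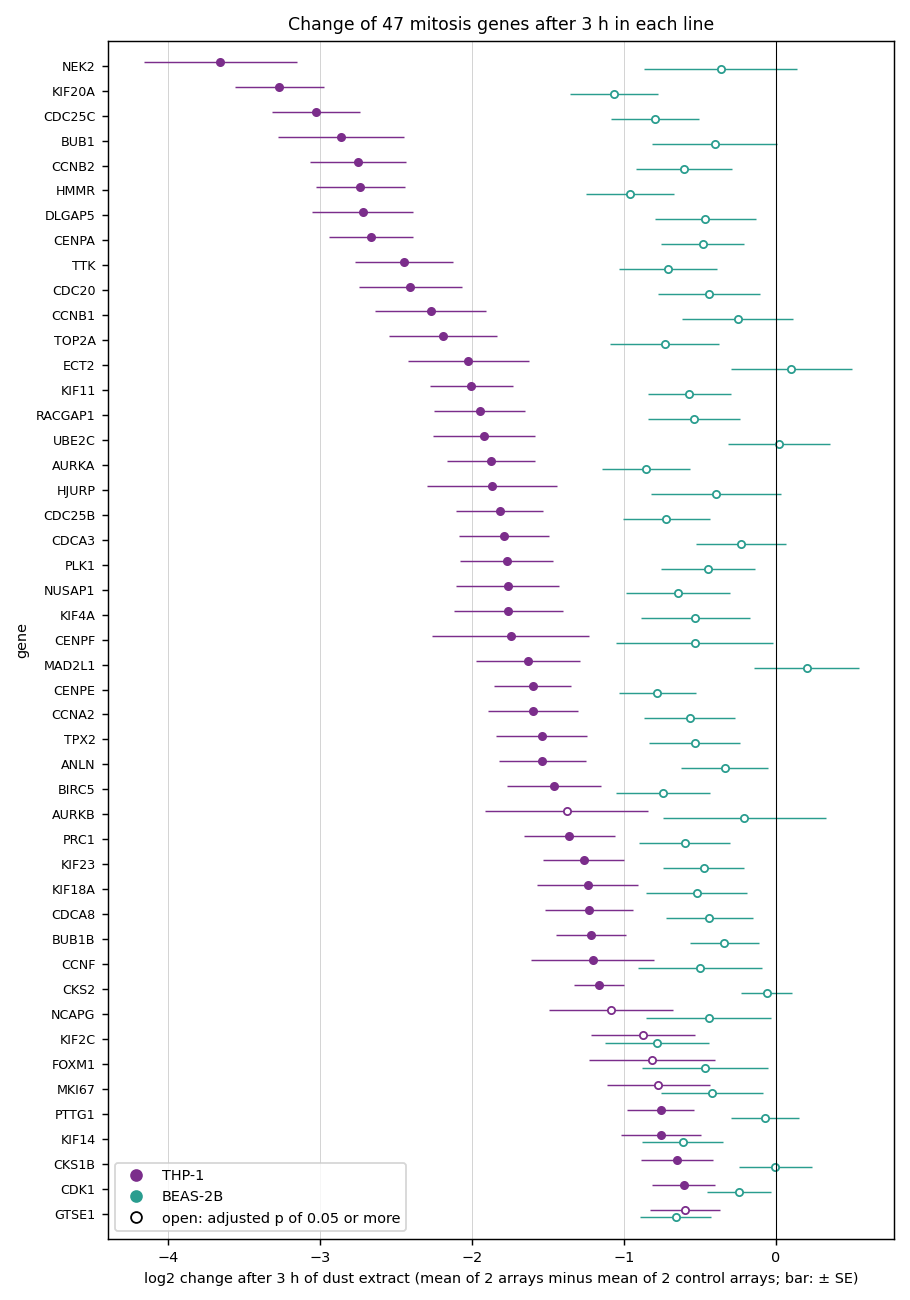
Log2 change after 3 h of dust extract against control (x axis) for each of the 47 genes (y axis, ordered by the THP-1 change), in THP-1 and BEAS-2B, as fitted, with bars of ± SE and open symbols at an adjusted p of 0.05 or more. The THP-1 estimates run from -3.66 to -0.60 and the BEAS-2B estimates from -1.07 to 0.20.

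After 1 h the same genes had not moved past the threshold in THP-1 cells. None of the 47 was called (limma), against 1.63% of all features, and 1 had an unadjusted p under 0.05, MKI67. That probe was dim on both arrays at 1 h and on 1 control array. Its change was -0.37 with dim arrays at the detection limit. The 47 estimates ran from -0.78 (MKI67) to 0.20 (CDK1), and 43 of them were negative. The median change was -0.29, against -0.03 over all features. This median turned to 0.10 without control replicate 2 and to 0.05 without dust 1 h replicate 1, so its sign rests on those arrays in a comparison of unlike replicate numbers. Within replicate 1 the median was -0.18 with 39 of 47 genes lower, and within replicate 2 -0.30 with 42 lower. Between 1 h and 3 h, 37 of the 47 genes fell and 0 rose (median -1.44), against 22.7% of all features called lower, 16.9% called higher and 39.6% called in either direction. NEK2 fell 8.78-fold, KIF20A 6.57-fold and HMMR 5.63-fold between the 2 times, with 1 dim array at 3 h for NEK2 and for KIF20A (6.11-fold and 6.43-fold with it at the limit). Both comparisons use the 3 h arrays, so they are not independent of each other.

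In BEAS-2B cells no member passed the test after 1 h or 3 h. After 1 h the median change was -0.13 with 0 of 47 called (limma), against 1.18% of all features, and 1 gene, GTSE1, at an unadjusted p under 0.05. After 3 h the median was -0.48, a 1.40-fold difference, against -0.04 over all features, with 44 negative estimates. Again 0 of 47 were called (limma), against 2.18% of all features called lower, 3.29% called higher and 5.47% in either direction, and 10 had an unadjusted p under 0.05. In 38 genes both arrays after 3 h lay below both control arrays, which held for 33.7% of all features.

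KIF20A in BEAS-2B read 11.01 and 11.10 in control, 11.17 and 10.79 at 1 h, then 9.85 and 10.13 at 3 h. Its change of -1.07 ± 0.29 had the smallest adjusted p of the list, 0.0611. HMMR read 10.96 and 11.04, then 11.15 and 10.86, then 9.91 and 10.16, a change of -0.96 ± 0.29 (adjusted p = 0.0848). In both genes the 2 arrays after 3 h lay below the other 4 arrays of the line. AURKA read 11.58 and 11.48 in control, 11.45 and 11.34 at 1 h, then 10.34 and 11.02 at 3 h (-0.85, adjusted p = 0.122). CENPE read 9.40 and 9.64, then 9.60 and 9.50, then 8.62 and 8.86 (-0.78, adjusted p = 0.107). CDC25C read 8.83 and 8.99, then 9.08 and 8.88, then 7.98 and 8.24 (-0.80, adjusted p = 0.147). All 3 were below control on both arrays without passing the threshold. GTSE1 read 9.34 and 9.25 in control, 8.85 and 8.63 at 1 h, then 8.48 and 8.79 at 3 h (-0.66, adjusted p = 0.135). KIF2C changed by -0.78, BIRC5 by -0.74, CDC25B by -0.72, TTK by -0.71, KIF14 by -0.62 and KIF11 by -0.57, each with an adjusted p of at least 0.178. The estimates of UBE2C (0.02), ECT2 (0.10) and MAD2L1 (0.20) were above 0. From 1 h to 3 h the median change was -0.39 with 0 of 47 called (limma), against 2.71% of all features, and 6 genes had an unadjusted p under 0.05.

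The counts at 3 h differed between fits in both lines. The fit above shares 1 estimate of the spread per gene over both lines. With the BEAS-2B arrays fitted alone on the same normalized values, an alternative chosen after seeing the data, 12 of the 47 genes were called lower at 3 h, against 3.39% of all features. When each line was also normalized and filtered on its own, 13 were called lower, against 4.78% of all features. These 13 were KIF20A (-1.04, adjusted p = 0.0204), HMMR (-0.94, adjusted p = 0.0198), CDC25C, CENPE, CCNB2, NUSAP1, BIRC5, KIF4A, CDC25B, TOP2A, KIF2C, GTSE1 and KIF23. With the replicate number as a block, 8 were called lower, against 2.83%. In THP-1 the fits per line went the other way, from 41 genes called lower at 3 h in the main fit. The count was 35 of 47 on the shared normalization, against 3395 of 15479 features called lower. With THP-1 also normalized and filtered on its own, it was 36 of the 45 genes tested, against 3415 of 13651 features. With the block it was 47 of 47, against 28.2% of all features.

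The dust effect was compared between the lines within the same fit. At 3 h, 19 of the 47 genes had a smaller fall or none in BEAS-2B and 0 went the other way, with a median difference of 1.17 (1.03 with dim arrays at the detection limit). Of the 19, 10 were well above background on both THP-1 arrays at 3 h, 6 on 1 and 3 on neither, and all 19 differences kept their sign with dim arrays at the limit. Over all features 26.6% differed, 14.9% in this direction and 11.7% in the opposite one, and the median was 0.03. CENPA (2.18 ± 0.39, adjusted p = 0.00258), CDC25C, KIF20A, CCNB2 and DLGAP5 had the smallest p-values. With dim arrays at the limit the difference was 1.16 for CDC25C and 2.17 for KIF20A. The CDC25C probe that was well above background on all 12 arrays changed by -0.89 in THP-1 and by -0.70 in BEAS-2B. NEK2 had the largest difference, 3.29 ± 0.71 (2.77 with its dim array at the limit). This size holds for the probe used. The other NEK2 probe, well above background on 10 arrays, changed by -1.72 in THP-1 and by -0.94 in BEAS-2B. KIF2C, KIF14 and GTSE1 did not pass this test, with changes of -0.88, -0.76 and -0.60 in THP-1 and -0.78, -0.62 and -0.66 in BEAS-2B. At 1 h 0 of 47 differed (limma), against 0.569% of all features, and 0 had an unadjusted p under 0.05. The count at 3 h was 11 without THP-1 control replicate 2, BEAS-2B control replicate 1 or BEAS-2B 3 h replicate 2, and 32 without THP-1 3 h replicate 2. It was 31 and 29 with the THP-1 arrays of replicate 1 or of replicate 2 alone. Line and dose cannot be told apart here.

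Other mitosis genes, chosen like the main list with earlier results known, also fell in THP-1 cells. Of 51 such genes tested, 31 fell in THP-1 cells after 3 h and 0 rose, with a median of -1.13, against 26.6% of all features lower and 19.1% higher. In BEAS-2B 0 of the 51 were called (limma), with 7 at an unadjusted p under 0.05 and a median of -0.33. Over all features 5.47% were called in BEAS-2B at 3 h. KIF22, a chromosome-bound kinesin, read 11.34 and 11.18 in THP-1 control and 9.46 and 9.61 after 3 h, a change of -1.73 ± 0.13. PSRC1, a spindle protein, was at least 2.93-fold lower and NUF2, a kinetochore subunit, at least 1.94-fold lower. The subunits and activators of the anaphase-promoting complex, which are present through much of the cell cycle, gave smaller values. Of 12 tested, 6 fell and 1 rose in THP-1 cells after 3 h (median -0.38), while 45.7% of all features were called in either direction. The falls included ANAPC13 (-0.95), ANAPC5 (-0.77) and ANAPC4 (-0.77). FZR1, which activates the complex in late mitosis and G1, rose from 6.06 and 5.76 to 6.96 and 6.96 (1.05 ± 0.14, adjusted p = 0.000154). At the same time, among 9 tested genes of the MuvB and DREAM complexes, LIN54 (0.73) and LIN52 (0.59) rose, and 4 fell, again beside 19.1% of all features higher and 26.6% lower, with LIN37 at least 1.70-fold, LIN9 2.72-fold (2.55-fold with its 1 dim array at the detection limit) and RBL2, a retinoblastoma-family repressor, 2.09-fold lower. None of these genes of either complex was called in BEAS-2B at 1 h or 3 h (limma), against 1.18% and 5.47% of all features. At an unadjusted p under 0.05 were 1 and 0 of them at 1 h and 4 and 2 at 3 h.

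Inhibitors of cyclin-dependent kinases and genes of cell cycle arrest moved in both directions in THP-1 cells after 3 h. Of 11 tested, 3 rose and 4 fell, against 19.1% of all features higher and 26.6% lower, so the counts lie near the background. GADD45B, a stress-response gene of the GADD45 family, read 7.52 and 7.43 in control, 9.16 and 9.81 at 1 h, then 11.07 and 10.97 at 3 h. It was 4.02-fold higher at 1 h (adjusted p = 0.000231) and 11.7-fold higher at 3 h (adjusted p = 3.87e-07). BTG1, an antiproliferative gene, read 11.79 and 11.67 in control, 11.49 and 11.13 at 1 h, then 13.98 and 13.58 at 3 h (2.05 ± 0.24). CDKN1A, the inhibitor p21, read 10.01 and 10.66, then 10.44 and 10.94, then 11.94 and 12.04 (1.65 ± 0.29, adjusted p = 0.000968). The arrays after 3 h of these 3 genes lay above all other THP-1 arrays. CCNG2, cyclin G2, which is tied to arrest, read 8.11 and 8.33 in control and was dim after 3 h, at least 5.27-fold lower. The inhibitors CDKN2D (-1.30) and CDKN1B, which encodes p27 (-1.07), and CCNG1 (-0.85) also fell.

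In BEAS-2B, 1 of the 11 arrest genes rose after 1 h, and 1 rose and 2 fell after 3 h. Over all features 1.18% were called in either direction at 1 h, and 3.29% were called higher and 2.18% lower at 3 h. GADD45A read 9.57 and 9.56 in control, 11.50 and 11.38 at 1 h, then 11.13 and 10.66 at 3 h. It rose by 1.87 ± 0.23 at 1 h (adjusted p = 0.0022) and by 1.33 at 3 h (adjusted p = 0.00759). GADD45B read 9.44 and 9.56 in control and 8.50 and 8.62 after 3 h and fell by 0.94, and CDKN2B, the inhibitor p15, fell by 0.94. CDKN1A read 11.94 and 11.91 in control, 13.04 and 12.83 at 1 h, then 13.37 and 12.48 at 3 h, higher on each dust array than on either control array (1.01 at 1 h, adjusted p = 0.249, and 1.00 at 3 h, adjusted p = 0.0774). Without a BEAS-2B control array or BEAS-2B 3 h replicate 1, the 3 h calls of GADD45A and GADD45B were lost (adjusted p between 0.0551 and 0.143). Without a BEAS-2B control array that of CDKN2B was lost too (adjusted p up to 0.0925).

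**Figure D4:**
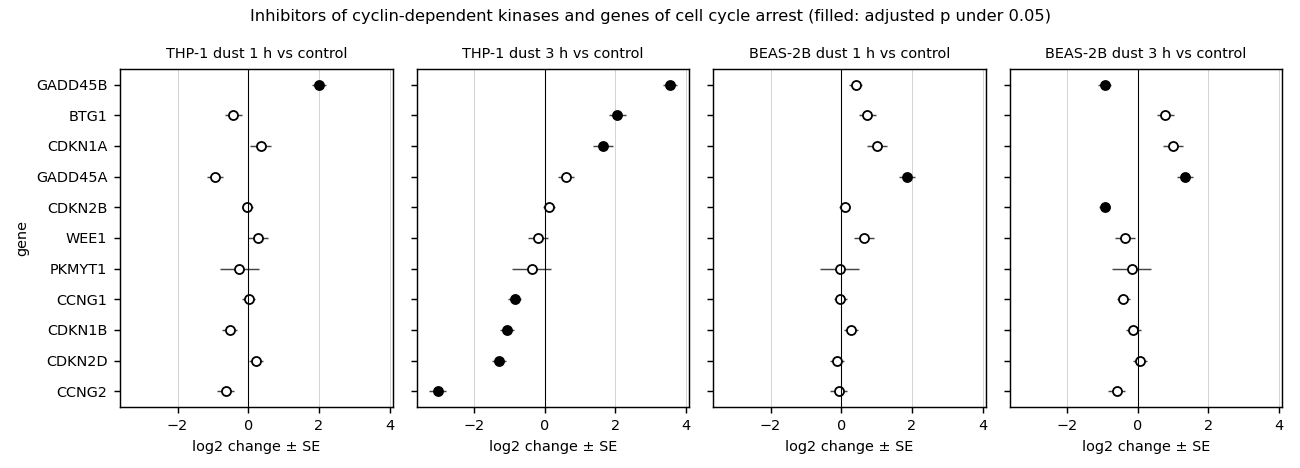
Log2 change with ± SE (x axis) of 11 inhibitors of cyclin-dependent kinases and arrest genes (y axis) in each line and time against control, filled where the adjusted p is under 0.05. GADD45B is at 3.55 in THP-1 and at -0.94 in BEAS-2B after 3 h.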

How the data were processed

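Expression was read on a human Illumina BeadChip in 12 samples of 6 groups, 2 arrays each. The deposited raw table gives, per the file headers, a linear intensity per probe, the bead standard error of that intensity, the count of beads, and a p-value of detection. It was exported by GenomeStudio 2011.1 per the submitters' processing notes. The authors' value table also holds intensity and served as an alternative. The median bead number was 21 per probe on each array. The number of arrays limits the precision.

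The limma function nec corrected the background through the p-values of detection (offset 16), and signals were log2-transformed and quantile-normalized (limma 3.58.1, R 4.3.3). Of 47320 probes, 30112 carried a single symbol, 8 more than 1, and 17200 stayed unnamed here. Each gene was read from its probe with the highest mean raw signal, and features needed a detection p under 0.01 on the 2 arrays of some group, leaving 11412 genes and 4067 unnamed probes. A model of 6 group means (lmFit and eBayes, 6 residual degrees of freedom) gave 9 comparisons, with Benjamini-Hochberg adjustment over all 15479 features. The fit was tested on simulated data.

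The 47 genes, the other gene lists and the tests were chosen with earlier results of these data known. The rule for genes given in full was, per line, up to 12 members with the smallest adjusted p against control plus those of highest and lowest mean signal, and up to 3 called genes per other list, comparison and direction. The largest and smallest values of a group, and calls lost or gained, were named after seeing them. Alternatives covered background correction, scaling, filter, probe choice, the authors' value table, a fit per line, a replicate block and leaving out each array. Fits on the THP-1 arrays of 1 replicate number, and per line on the shared normalization, were added after seeing the data. Promoter windows are RefSeq's on GRCh38.p14. The build used for the array is not given in the sources used here. Samples at 6 h, which the design text mentions, were not analysed here.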

Additional observations from a re-analysis of the deposited data

Results flagged for a closer look

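The dust effect at 3 h differed between the lines, by the interaction term of the limma fit (adjusted p under 0.05), for 19 of the 47 mitosis genes. Over all features 26.6% differed, 14.9% with a positive term and 11.7% with a negative one. Each value is the log2 change in BEAS-2B minus that in THP-1, so a positive value is a smaller fall in BEAS-2B, and the dose differed between the lines. Where a THP-1 array at 3 h was not well above background, the value with that array at the detection limit follows the fitted one, since the fitted one rests on a dim signal. Among CDK1 regulators the difference was 2.15 for CCNB2, 1.10 for CKS2 and, with 1 dim array, 2.02 for CCNB1 (1.92 at the limit). CDC25C and CDCA3 were dim on both arrays, with 2.23 and 1.56 as fitted and 1.16 and 1.15 at the limit. Among kinases and checkpoint genes it was 1.74 for TTK and 1.83 for MAD2L1, and with 1 dim array 3.29 for NEK2 and 2.46 for BUB1 (2.77 and 2.23 at the limit). PLK1 was dim on both arrays, with 1.33 as fitted and 0.83 at the limit. For the anaphase genes CDC20 and UBE2C it was 1.96 and 1.94. For the kinesins KIF11 and KIF20A it was 1.44 and 2.20 with 1 dim array each (1.05 and 2.17 at the limit), and for CENPA 2.18. For the spindle genes DLGAP5 and HMMR it was 2.25 and 1.77, and for the cytokinesis genes ECT2 and RACGAP1 it was 2.13 (1 dim array, 1.83 at the limit) and 1.41.

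Among inhibitors and arrest genes the term was positive at 3 h for CDKN1B (0.95), CDKN2D (1.36) and CCNG2, which was dim on both arrays (2.44 as fitted, 1.80 at the limit). It was negative for GADD45B (-4.48), BTG1 (-1.27) and CDKN2B (-1.05), whose probe was not well above background on any THP-1 array. At 1 h the term was 2.80 for GADD45A and -1.60 for GADD45B. The GADD45B value at 1 h, the CDKN1B value and the BTG1 value each missed the threshold when any of several single arrays was left out, with adjusted p up to 0.16, 0.106 and 0.0611.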

How the results depend on the processing

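No member changed direction past the threshold under any alternative. In THP-1 cells at 3 h, all other scalings, filters and fits gave 28 to 47 genes called lower and 0 higher, the 28 of 29 genes detected on all 12 arrays, and leaving out 1 array gave 33 to 45. From 1 h to 3 h the count was 23 of 29 with detection on all 12 arrays, and 25 to 42 with 1 array left out. In BEAS-2B at 3 h the count rose from 0 to 1 without background correction, 1 with the authors' value table, 2 with the mean of all detected probes, 13 with normalization, filter and fit done per line, 12 with only the fit done per line, and 0 to 3 with 1 array left out (3 without either THP-1 control array). From 1 h to 3 h in BEAS-2B it was 5 and 4 in these 2 ways and 0 to 2 with 1 array left out. The line difference at 3 h was 36 with housekeeping scaling, 11 with detection on all 12 arrays, 31 and 29 with THP-1 replicate 1 or 2 alone, and 11 to 32 with 1 array left out. The control comparison gave 18 with detection on all 12 arrays and 21 to 39 with 1 array left out. Housekeeping scaling put the line difference at 3 h at 3579 features with a positive term and 1204 with a negative one. The main fit had 2300 and 1813, and the median of all features moved from 0.03 to 0.24. The 5 and 4 genes of BEAS-2B from 1 h to 3 h stood beside 1.82% and 1.31% of all features called lower. Member counts given without a count or share of all features are not set against a background. Counts of members at 1 h stayed at 0 throughout. Apart from fewer genes or arrays and the spread estimated per line, the causes were not tested. A lone array left in a group is assumed to vary like the other groups.

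With the replicate number as a block, 47 genes were called lower in THP-1 at 3 h and 8 in BEAS-2B at 3 h. In BEAS-2B from 1 h to 3 h, 2 were called lower, against 216 of 15479 features. At 3 h the line difference was called for 35 genes, against 2596 features with a positive term and 2045 with a negative one. The labels do not say what a number marks. Over all features, deviations of same-numbered arrays correlated at 0.344, 0.287 and 0.241 between THP-1 groups and at 0.205, 0.00725 and -0.106 between BEAS-2B groups. The main fit did not take the numbers as pairs. The THP-1 correlations were all positive, so they are no reason to leave the pairing out in that line. They also do not cover the 47 genes taken alone. In THP-1 their median differences, replicate 2 minus replicate 1, were 0.67, 0.60 and 0.80. The main fit leaves this offset in the spread.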
